A study of Homo sapiens with 4 samples.

Results

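RAB GTPases are small membrane-bound switches, and each member marks particular compartments of the secretory and endocytic pathways. They were taken as the protein-coding genes of GENCODE v44 whose symbol is RAB followed by a number and an optional letter, which gave 63 genes of 20046. Of these, 46 had at least 1 cluster of poly(A) sites (PAC) in the deposited tables, against 10841 of all protein-coding genes. The 17 without a PAC in any library were RAB3B, RAB3C, RAB6C, RAB6D, RAB7B, RAB9B, RAB19, RAB32, RAB33A, RAB36, RAB37, RAB39A, RAB39B, RAB40A, RAB41, RAB42 and RAB44. A PAC was counted for a gene when its dominant site, the position with the most tags, lay between the annotated ends of the gene on the same strand.

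PAS-seq, a 3′ end sequencing assay of polyadenylated RNA, was applied to KYSE30 and TE-1, both established human lines of esophageal squamous cell carcinoma (ESCC). Each line gave 1 library of cells exposed to L-lactate (20 mM, 24 h) and 1 of PBS controls. In the labels of the controls the cell line field reads KYSE32 and TE-3. Their titles and the published methods name KYSE30 and TE-1, and those names were followed. A group held 1 library, so replicate error is unknown, no test across replicates was run, and every interval below covers the counting of tags only.

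A RAB protein bound to GTP sits on its membrane and recruits effectors that move, tether or fuse vesicles, and hydrolysis of the GTP ends the signal. Exchange factors (GEFs) load GTP, GTPase-activating proteins (GAPs) speed its hydrolysis, and REP, the geranylgeranyl transferase and GDI attach the lipid anchor and carry the protein through the cytosol. In epithelial cells, RAB11 relatives run the recycling endosome that returns proteins to the apical and lateral membrane.

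PAC levels are given as TPM, the tags of a PAC per 1000000 tags of its library, and the level of a gene is the sum over its PACs. Since a tag marks the end of a transcript, TPM carries no correction for length and was compared between genes as a level per transcript end. The libraries held from 7174991 to 10393799 tags, and the lowest listed TPM in a library was from 1.06 to 1.12. The keratinocyte genes KRT5, KRT14, TP63 and DSG3 were not listed in any library, SOX2 and KRT6A were listed in KYSE30 only, KRT17 was listed in TE-1 only, and DSP was listed in all 4. Of the markers of other cell types, COL1A2, COL3A1, PTPRC, CD3E, PECAM1 and VWF were not listed in any library. COL1A1 and DCN were listed in TE-1 only, at up to 7.12 TPM, and CD68 was listed in every library at up to 15.2 TPM.

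The sequences below show where the transcripts of the members that the results turn on were cut. Each is the 30 nt of GRCh38 that end at a dominant site, written 5′ to 3′ on the strand of the gene, with AATAAA, the main poly(A) signal, in capitals where it is present. RAB25 is shown because its level separated the lines most, RAB11A, RAB11B and RAB31 because they differed between the lines or moved their site, and RAB23, RAB27A and RAB30 because the use of their sites changed.
RAB25 (chr1:156070474-156070503, plus strand): aggaccctcaAATAAAgctgttttatatca
RAB11A, site of 3 libraries (chr15:65888055-65888084, plus strand): gtttAATAAActgaatgtttggattcctca
RAB11A, site of the TE-1 control (chr15:65887894-65887923, plus strand): gatttaaatatatttgtaattcttgtgtca
RAB11B (chr19:8404399-8404428, plus strand): ttactgaaatgtataatctgacttcctgta
RAB31 (chr18:9862522-9862551, plus strand): gattcatactAATAAAtattttcagtttta
RAB23, proximal (chr6:57188785-57188814, minus strand): agatggaaaAATAAAaaaaattaaaaagta
RAB23, distal (chr6:57186995-57187024, minus strand): taatcagaaAATAAAtgcatttcaaagcta
RAB27A, proximal (chr15:55205350-55205379, minus strand): ctacgAATAAAgcatccggttctaaaatta
RAB27A, distal (chr15:55202968-55202997, minus strand): gctgtAATAAAaaagtggtctagtctgtca
RAB30, site 2066 nt into the 3′ UTR, of TE-1 with L-lactate (chr11:82980215-82980244, minus strand): agtcattttAATAAAaaccaaaataattta
RAB30, distal (chr11:82973135-82973164, minus strand): tgtatataAATAAAcatttcctgttgccca

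All of these sites lie in the annotated 3′ UTR of their gene. The RAB25, RAB31, RAB23, RAB27A and RAB30 sites have AATAAA ending from 14 to 19 nt before the cut, while the RAB11B site has neither AATAAA nor its common variant ATTAAA in these letters. Over the members, 63 of 67 PACs lay in a 3′ UTR, and the dominant site lay a median of 1467 nt from the start of the 3′ UTR exon (range 90 to 9146 nt). AATAAA was present in the 50 nt up to the dominant site in 45 of the 63 (71.4%, 95% Wilson interval 59.3% to 81.1%), ATTAAA alone in 14.3% and neither in 14.3%. Over the 13748 3′ UTR PACs of all protein-coding genes the shares were 66.7%, 16.8% and 16.6%, so the members' interval included the overall share of AATAAA. In the members the end of AATAAA lay a median of 18 nt from the dominant site (range 12 to 41 nt). TGTA, the motif that cleavage factor CFIm binds as UGUA, was present within 100 nt in 61.9% of member PACs (49.6% to 72.9%) and in 58.0% of all. The dominant site was an A in 57 of the 63 member PACs (90.5%) and in 91.3% of all 3′ UTR PACs. The 20 nt after the site held from 1 to 9 A in the members, against up to 18 in the whole set.

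The members summed to 3810 TPM with L-lactate and 3692 TPM in the control of KYSE30, and to 3111 TPM with L-lactate and 2935 TPM in the control of TE-1. These sums were 0.41%, 0.399%, 0.335% and 0.315% of the listed TPM. A PAC was listed for 42, 44, 43 and 43 members in the same order, and for 39 members in every library. The libraries listed 59, 62, 60 and 59 PACs in RAB genes, of 67 in all. The highest means over the 4 libraries belonged to RAB5C, RAB1A, RAB1B, RAB25, RAB11A and RAB14, which act at the early endosome, at ER to Golgi transport and on recycling routes. These 6 genes held 40.9% and 39.9% of the members' TPM in the KYSE30 libraries and 32.9% and 33.0% in the TE-1 libraries. Across the members listed in both libraries, Spearman's rho of TPM was 0.992 within KYSE30 (42 genes), 0.992 within TE-1 (43 genes) and from 0.779 to 0.804 across the lines (39 to 41 genes). Libraries of a line share their cells, and genes are not replicates.

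**Figure D1:**
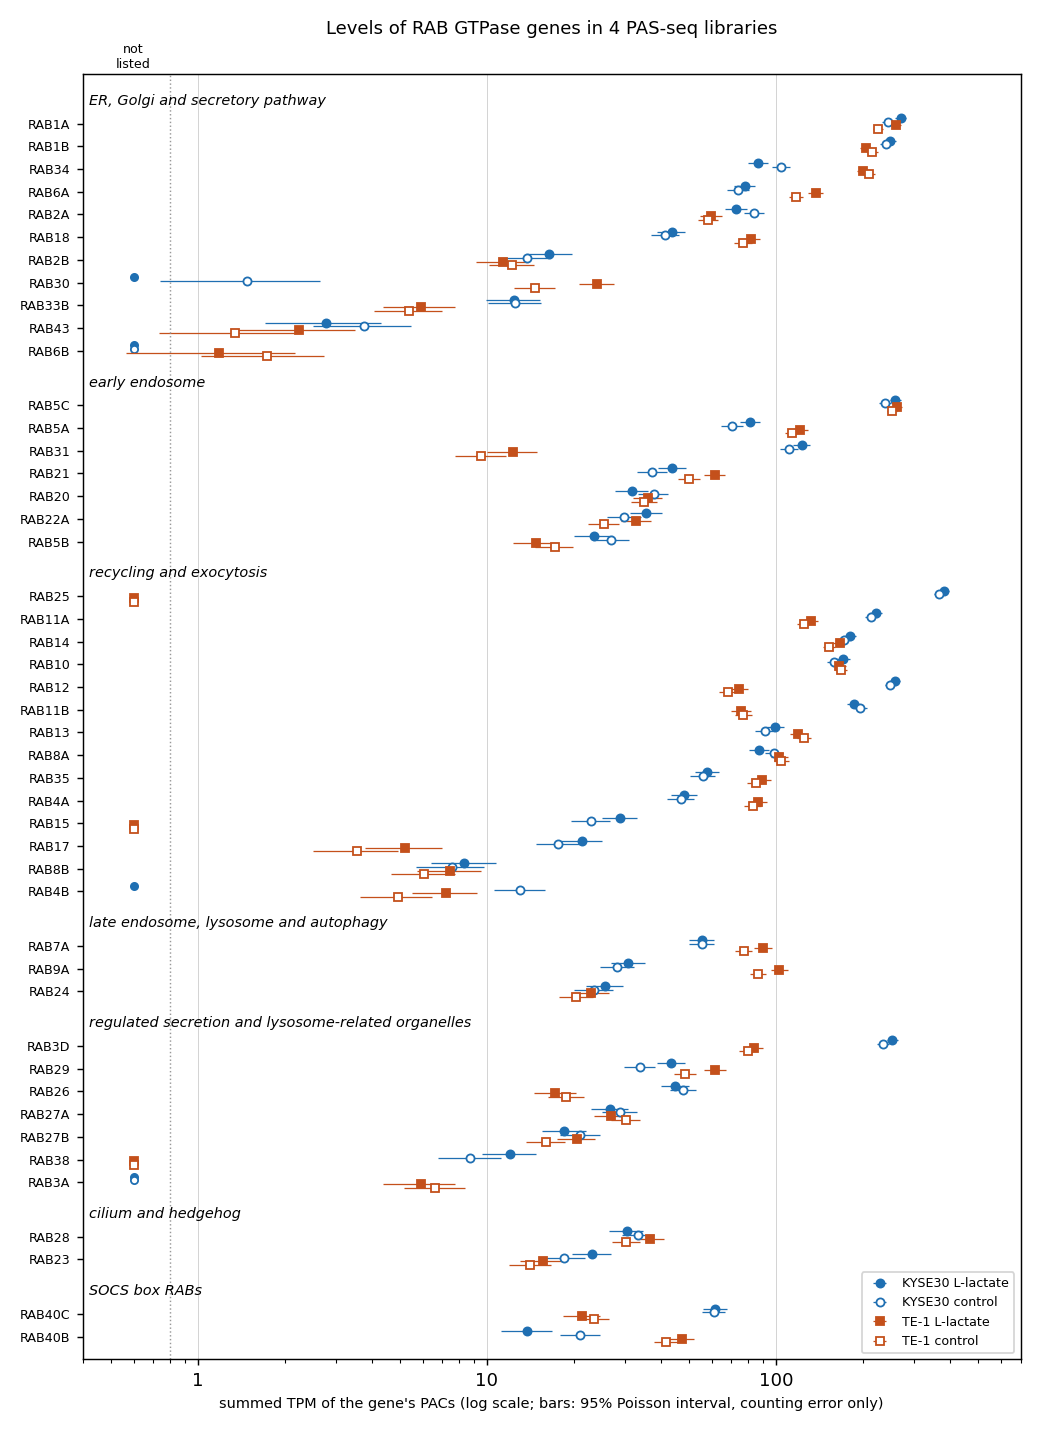
Summed TPM (log scale) of the 46 RAB GTPase genes with a PAC, grouped by role; circles are KYSE30 and squares TE-1, filled with L-lactate and open for control, with 95% Poisson intervals, and points left of the dotted line were not listed. The RAB25 points stand at 366 and 382 TPM in KYSE30 and are not listed in TE-1, while the 4 RAB5C points lie between 238 and 262 TPM; RAB4B is at 0 in KYSE30 with L-lactate because its dominant site there lies 1 nt past the annotated end.

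The comparison of the lines asks how far the RAB repertoire differs between 2 ESCC lines in the same treatment. A gene was called past a 2-fold ratio of TPM + 1, when its sum reached 5 TPM in 1 of the libraries compared. In the controls 16 of 44 members were called, 4 higher and 12 lower in TE-1, where 36.7% of all protein-coding genes were called (16.9% higher and 19.8% lower). With L-lactate 16 of 44 were called, 6 higher and 10 lower, where 35.4% of all genes were called (17% higher and 18.4% lower). The members' share was 36.4% in each, close to the background. Their median log2 ratio was -0.16 in the controls (all genes -0.02) and -0.05 with L-lactate (all genes 0.01). In both treatments 10 members were called lower in TE-1 (RAB25, RAB15, RAB38, RAB31, RAB17, RAB12, RAB3D, RAB40C, RAB26 and RAB11B) and 4 higher (RAB30, RAB3A, RAB9A and RAB34), where 16.3% and 14.6% of all genes were. RAB33B, a Golgi RAB of the autophagy pathway, was at 12.4 and 12.5 TPM in KYSE30 and 5.90 and 5.39 TPM in TE-1 and was called in the controls only. RAB40B was called with L-lactate only. RAB4B was called lower in TE-1 in the controls (2.66-fold, 1.88 to 3.81) and higher with L-lactate, and the call with L-lactate rests on the end of its annotation.

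RAB25, an epithelial relative of RAB11 at the apical recycling endosome, was listed at 382 TPM with L-lactate and 366 TPM in the control of KYSE30 cells and was not listed in either TE-1 library. It was the highest member of each KYSE30 library. Its PAC ends 219 nt into the 3′ UTR (gene at chr1:156061160-156070504, GRCh38, plus strand). RAB11A, the widely expressed member of that group, was at 221 and 214 TPM in KYSE30 and at 132 and 125 TPM in TE-1. Its level was 1.67-fold (1.55 to 1.81) higher in KYSE30 with L-lactate and 1.71-fold (1.59 to 1.84) higher in the controls, under the 2-fold limit. RAB11B was at 185 and 195 TPM in KYSE30 and at 75.6 and 77.1 TPM in TE-1, 2.45-fold (2.23 to 2.70) and 2.54-fold (2.32 to 2.77) higher in KYSE30. RAB25, RAB11A and RAB11B were thus each lower in TE-1, RAB11A by less than 2-fold. Together they came to 788 and 775 TPM in KYSE30 and 208 and 202 TPM in TE-1. RAB25 made up 48.5% and 47.2% of that sum in KYSE30, whereas RAB11A made up 63.6% and 61.8% in TE-1.

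The epithelial markers EPCAM and CDH1 moved in the same direction as RAB25. EPCAM was at 635 and 563 TPM in KYSE30 and 36.4 and 30.7 TPM in TE-1. CDH1, the E-cadherin gene, was at 228 and 204 TPM in KYSE30, at 1.30 TPM in TE-1 with L-lactate and not listed in the TE-1 control. KRT8 was at 2229 and 2154 TPM in KYSE30 and 969 and 1004 TPM in TE-1, and KRT18 was at 270 and 293 TPM against 166 and 175 TPM. The 4 markers summed to 3362, 3215, 1172 and 1209 TPM. The 8 squamous markers did not share that direction as a group, at 440 and 376 TPM in KYSE30 and 492 and 501 TPM in TE-1. Of these, DSP and KRT17 were higher in TE-1, whereas SOX2 and KRT6A were listed in KYSE30 only. The part of any of these markers in the RAB25 difference was not tested. In bulk RNA, fewer cells that make a transcript and less of it per cell cannot be told apart.

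Of the other recycling and exocytosis genes, RAB15, RAB17 and RAB12 were called lower in TE-1 in both treatments. RAB15, of early and recycling endosomes, was at 28.9 and 22.9 TPM in KYSE30 and not listed in TE-1. RAB17, an epithelial RAB of transcytosis, was at 21.3 and 17.6 TPM in KYSE30 and at 5.20 and 3.56 TPM in TE-1. RAB12, which directs cargo of recycling endosomes to lysosomes, was at 257 and 248 TPM in KYSE30 and 74.2 and 68.2 TPM in TE-1. That is 3.46-fold (3.16 to 3.80) and 3.64-fold (3.34 to 3.98) higher in KYSE30. RAB14 was at 180, 172, 166 and 152 TPM, RAB10 at 170, 159, 165 and 168 TPM, and RAB8A at 87.5, 98.4, 103 and 104 TPM, each in the order KYSE30 L-lactate, KYSE30 control, TE-1 L-lactate and TE-1 control, which is used below. RAB13, a tight junction RAB, was at 99.2, 91.2, 119 and 125 TPM, with its PAC also inside the span of another protein-coding gene. RAB4A, of rapid recycling, was higher in TE-1 without reaching 2-fold, at 48.1, 46.9, 86.8 and 83.1 TPM. The same held for RAB35, at 57.8, 55.8, 89.5 and 85.1 TPM. RAB8B was at 8.36, 7.54, 7.44 and 6.06 TPM and was not called. The 14 genes of this group held 45.8% and 46.2% of the members' TPM in KYSE30 and 33.1% and 34.1% in TE-1.

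At the early endosome 1 of 7 genes was called in each treatment. This was RAB31, a RAB5 relative that acts between the trans-Golgi and endosomes, at 123, 111, 12.3 and 9.53 TPM. Its level was 9.98-fold (8.13 to 12.3) higher in KYSE30 with L-lactate and 11.6-fold (9.44 to 14.5) in the controls. KYSE30 also listed an intronic RAB31 PAC, at 9.62 and 4.98 TPM, which TE-1 did not list. The RAB5 genes, which drive early endosome fusion, were not called. RAB5C was at 259, 238, 262 and 251 TPM, and its intervals overlapped between lines in each treatment. Its PAC also lies inside the span of another protein-coding gene on the same strand. RAB5A was at 81.3, 70.4, 121 and 113 TPM and RAB5B at 23.4, 26.9, 14.8 and 17.1 TPM, so that RAB5A was higher and RAB5B lower in TE-1. RAB5A made up 22.4% and 21.0% of the RAB5 sum in KYSE30 and 30.5% and 29.7% in TE-1.

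In the ER and Golgi group, RAB1A and RAB1B of ER to Golgi transport were not called, at 270, 243, 259 and 225 TPM for RAB1A and 247, 241, 205 and 215 TPM for RAB1B. RAB34, a Golgi and ciliary RAB, was at 86.6, 104, 200 and 210 TPM, and was 2.32-fold (2.11 to 2.54) higher in TE-1 with L-lactate and 2.02-fold (1.86 to 2.19) in the controls. The control ratio lay just past the limit, and with a pseudocount of 5 it fell below it. RAB30, a Golgi RAB, was not listed in KYSE30 with L-lactate and was at 1.48 TPM in its control, against 23.97 and 14.6 TPM in TE-1. RAB18, of the ER and lipid droplets, was at 43.5, 41.3, 81.6 and 76.8 TPM, under 2-fold in both treatments.

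Of the late endosome and lysosome genes, RAB7A, RAB9A and RAB24 were listed. RAB9A, which returns receptors from late endosomes to the trans-Golgi, was at 30.8, 28.3, 102 and 86.7 TPM. It was 3.33-fold (2.87 to 3.87) higher in TE-1 with L-lactate and 3.07-fold (2.63 to 3.58) in the controls. RAB7A, the main late endosome RAB, was at 55.3, 55.3, 90.2 and 77.3 TPM and was not called. RAB9A was the only one of the 3 past 2-fold.

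Among the RABs of regulated secretion, RAB38, a melanosome RAB, was at 12.0 and 8.75 TPM in KYSE30 and not listed in TE-1. RAB3A, of synaptic and endocrine exocytosis, was at 5.90 and 6.64 TPM in TE-1 and not listed in KYSE30. RAB26, of secretory granules, was at 44.7, 47.8, 17.2 and 18.8 TPM. RAB3D came to 253, 235, 83.6 and 80.0 TPM by the rule, but its larger PAC lies inside an intron and in the 3′ UTR of TMEM205, a gene on the same strand. That PAC was at 192, 179, 40.7 and 43.4 TPM, and the tags of the genes cannot be told apart there. The PAC in the 3′ UTR of RAB3D itself was at 60.1, 55.9, 42.9 and 36.7 TPM, with log2 ratios of -0.48 and -0.60 for TE-1 over KYSE30 with L-lactate and in the controls. On that PAC alone RAB3D was not called. RAB27A and RAB27B, which serve lysosome-related organelles and exosome release, were not called, at 26.6, 28.8, 26.9 and 30.2 TPM and 18.5, 21.0, 20.4 and 16.0 TPM. The RAB27A sum includes an intronic PAC of 6.83 to 9.97 TPM that lies in the 3′ UTR of PIGBOS1.

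RAB40B and RAB40C carry a SOCS box that joins them to ubiquitin ligases, and they moved in opposite directions. RAB40C was at 61.6, 60.9, 21.3 and 23.4 TPM, with its PAC inside the span of WFIKKN1. RAB40B was at 13.8, 21.0, 47.1 and 41.8 TPM, called higher in TE-1 with L-lactate (3.41-fold, 2.73 to 4.30) and just under the limit in the controls (1.99-fold, 1.65 to 2.40). RAB23 and RAB28, of the cilium and hedgehog signalling, were not called in either treatment.

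**Figure D2:**
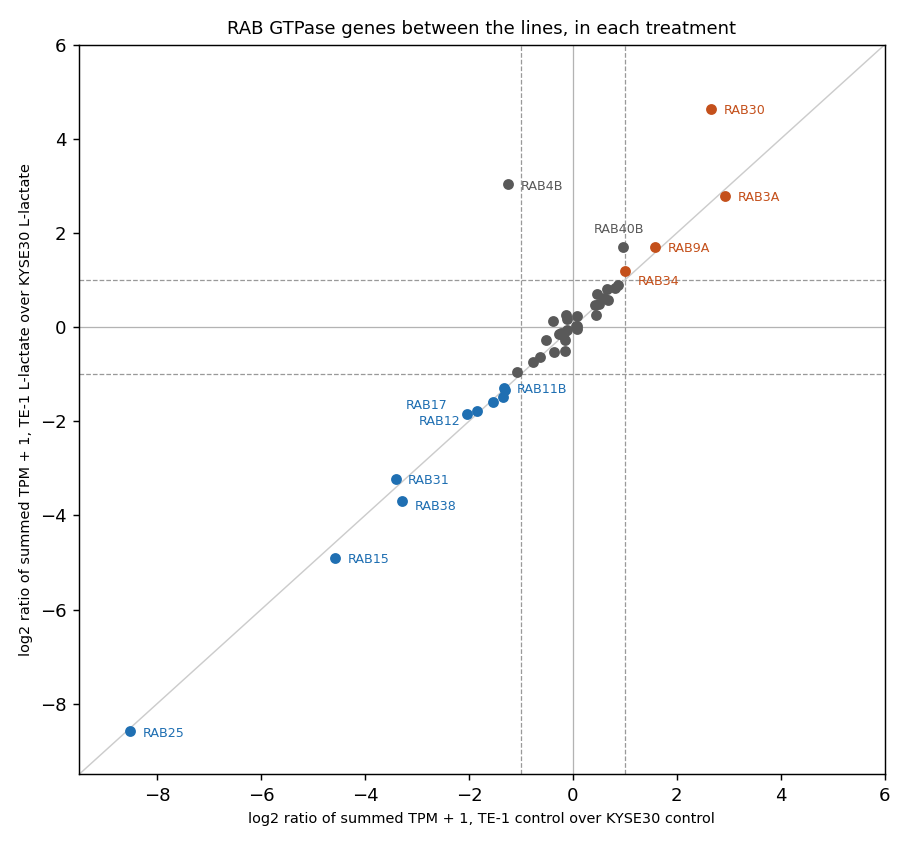
Log2 ratio of TPM + 1 between the lines in the controls (horizontal axis) and with L-lactate (vertical axis) for 44 RAB GTPase genes; dashed lines mark 2-fold, blue points were lower and orange points higher in TE-1 past it in both. RAB25 sits at -8.52 and -8.58 and most points lie near the diagonal, while RAB4B, at 3.04 with L-lactate, is off it because its PAC falls 1 nt outside the gene in a single library.

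RAB4B, of early endosome recycling, was at 13.1 TPM in the KYSE30 control, 7.20 TPM in TE-1 with L-lactate and 4.91 TPM in the TE-1 control, and came to 0 in KYSE30 with L-lactate by the rule. The same PAC was listed there at 12.4 TPM, with its dominant site 7 nt further on at position 40796943 of chromosome 19, 1 nt past the annotated end. With gene spans extended by 1000 nt, the log2 ratio of L-lactate to control in KYSE30 was -0.07, and that of TE-1 to KYSE30 with L-lactate was -0.71 in place of 3.04. Both calls were then lost. RAB4B also lies within the readthrough genes MIA-RAB4B and RAB4B-EGLN2.

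For L-lactate against control within a line, the question is whether the treatment changed RAB levels, and the limit was 1.5-fold. In KYSE30 1 of 42 members was called, RAB4B as just described, where 4.34% of all protein-coding genes were called (2.07% lower). In TE-1 1 of 41 was called, RAB30, where 4.02% of all genes were (2.55% higher). RAB30 was at 23.97 TPM with L-lactate and 14.6 TPM in the control, 1.64-fold higher (1.32 to 2.04). With a pseudocount of 5 in place of 1 its log2 ratio was 0.56 and the call was lost. No member was called in both lines, where 0.286% of all genes were called higher in both and 0.124% lower.

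Below that limit the members lay slightly above all genes. Their median log2 ratio was 0.06 in KYSE30 (all genes 0.01) and 0.10 in TE-1 (all genes 0.04). Of the 39 members compared in both lines, 20 (51.3%) were higher with L-lactate in both and 6 (15.4%) lower in both, against 32.7% and 23.2% of all genes. These shares carry no test and come from 1 library per group.

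The 5 members with the highest ratios in both lines were RAB29, RAB17, RAB22A, RAB21 and RAB1A. RAB29, a trans-Golgi RAB that recruits the kinase LRRK2, was at 43.3 TPM with L-lactate and 33.8 TPM in the control in KYSE30, and at 61.6 and 48.5 TPM in TE-1. These are ratios of 1.28-fold (1.08 to 1.52) and 1.27-fold (1.12 to 1.44). RAB17 was 1.21-fold (0.951 to 1.54) and 1.46-fold (0.921 to 2.32) higher, with intervals that include no difference. RAB22A, of early and recycling endosomes, was 1.19-fold (0.989 to 1.43) and 1.29-fold (1.09 to 1.54) higher. RAB21, an integrin trafficking RAB, was 1.18-fold (0.998 to 1.39) and 1.22-fold (1.08 to 1.39) higher, and RAB1A was 1.11-fold (1.04 to 1.18) and 1.15-fold (1.09 to 1.22) higher. Of these 5, the intervals of RAB29 and RAB1A lay above no difference in both lines. The 5 were picked on these same ratios, a choice that the intervals do not allow for.

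The 5 lowest were RAB5B, RAB27A, RAB26, RAB34 and RAB11B, in that order. The log2 ratios in KYSE30 and TE-1 were -0.19 and -0.20 for RAB5B and -0.08 and -0.03 for RAB11B. The RAB27A sum includes the PAC in the 3′ UTR of PIGBOS1. On its own 3′ UTR PACs the log2 ratio in KYSE30 was 0.07 in place of -0.11, so that it was not lower in both lines. RAB34 was 0.831-fold (0.747 to 0.925) in KYSE30 and 0.955-fold (0.896 to 1.02) in TE-1. RAB40B was at 0.657-fold of control (0.505 to 0.850) in KYSE30 and at 1.13-fold (0.982 to 1.30) in TE-1, opposite directions that were not tested against each other. No member other than RAB4B and RAB30 passed the limit of 1.5-fold on TPM + 1.

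**Figure D3:**
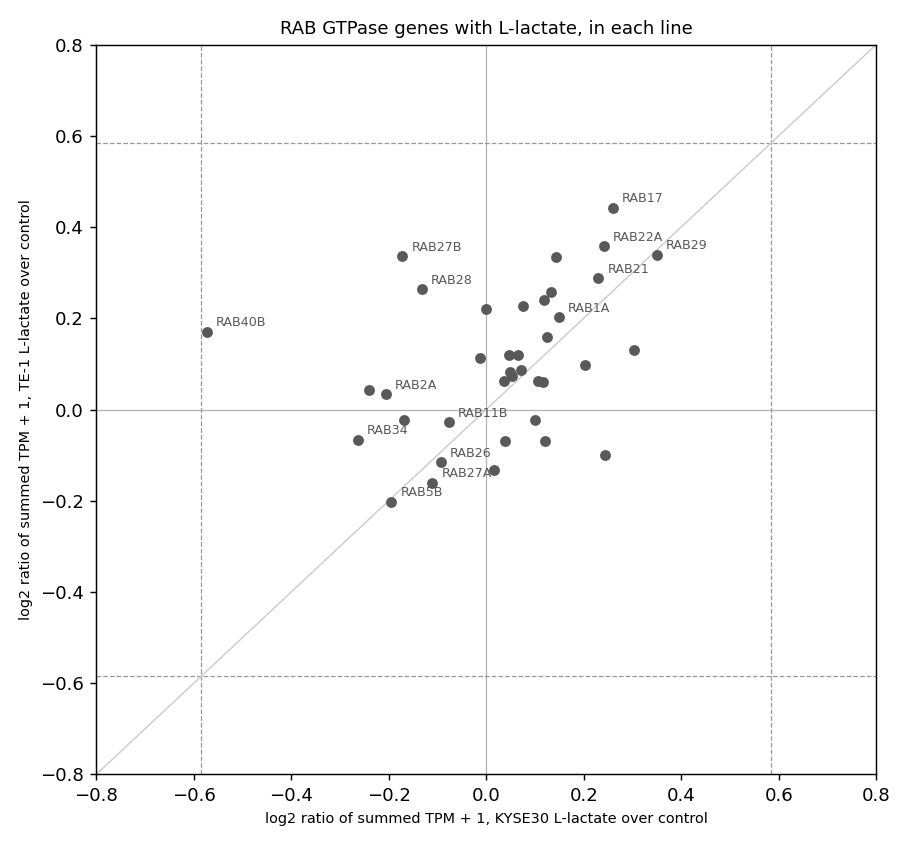
Log2 ratio of TPM + 1 for L-lactate over control in KYSE30 (horizontal axis) and TE-1 (vertical axis) for 38 RAB GTPase genes, with dashed lines at 1.5-fold; RAB4B, off the scale, and members under 5 TPM in both libraries of a line are not drawn. All points lie inside the dashed lines, RAB29 at 0.35 and 0.34 and RAB5B at -0.19 and -0.20.

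Alternative polyadenylation decides how much 3′ UTR a transcript keeps. Of the 43 members with a mean of at least 5 TPM, 13 (30.2%) had 2 or more PACs in the 3′ UTR, against 30.4% of the 9182 such genes overall. RAB30 had 4, RAB2A and RAB4A had 3, and the remaining 10 had 2. For comparison, the share was 60.0% of RAS family and 57.9% of ARF family GTPase genes. The distance between the first and last PAC went from 594 nt in RAB8A to 8301 nt in RAB30. Distal usage was the share of a gene's 3′ UTR tags in its most distal PAC, for genes with at least 2 such PACs that each reached 5 TPM in 1 of the libraries compared.

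Between the lines, distal usage changed by 10 percentage points or more in 3 of 10 members in the controls and in 3 of 10 with L-lactate, where 34.5% and 32.5% of all genes were called. The members were RAB23, RAB2A and RAB27A each time, all with less distal usage in TE-1, a direction called in 25.6% and 21.1% of all genes. RAB23, an inhibitor of hedgehog signalling, used its distal PAC for 38 of 165 tags in KYSE30 with L-lactate (23.0%, 17.3% to 30.02%) and 43 of 137 in the control (31.4%, 24.2% to 39.6%). In TE-1 that PAC was not listed, and the proximal PAC was at 15.6 and 14.1 TPM against 17.7 and 12.7 TPM in KYSE30. The proximal level was thus alike and the distal PAC, at 5.30 and 5.79 TPM, was seen in KYSE30 only. A single-site PAC under 3 TPM was removed by the authors' filter. A distal PAC at 3 TPM in TE-1 would have given 16.1% with L-lactate and 17.5% in the control, or changes of -6.89 and -13.9 percentage points, so the call with L-lactate rests on that PAC being well under the filter.

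RAB2A, of ER to Golgi transport, used its distal PAC for 49.2% (45.0% to 53.5%) and 52.7% (48.8% to 56.6%) of its 3′ UTR tags in KYSE30 and for 30.7% (26.8% to 34.8%) and 39.0% (35.2% to 43.0%) in TE-1. The difference was -18.5 percentage points with L-lactate (-24.3 to -12.6) and -13.7 in the controls (-19.2 to -8.15). Its distal PAC was at 35.8, 44.3, 18.3 and 22.7 TPM, whereas the middle PAC was at 29.4, 31.4, 37.8 and 32.2 TPM. The first PAC, 398 nt into the 3′ UTR, was at 7.53, 8.35, 3.54 and 3.27 TPM. The distal and first ends were thus lower in TE-1, and the middle end was not. With L-lactate the distal share in TE-1 was -8.32 percentage points from control (-13.8 to -2.68), under the limit.

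RAB27A used its distal PAC for 101 of 142 tags in KYSE30 with L-lactate (71.1%, 63.2% to 77.9%) and 84 of 140 in the control (60.0%, 51.7% to 67.7%). In TE-1 the counts were 92 of 161 (57.1%, 49.4% to 64.5%) and 113 of 227 (49.8%, 43.3% to 56.2%). The difference between lines was -14.0 percentage points with L-lactate (-24.3 to -3.14) and -10.2 in the controls (-20.3 to 0.276), so that the latter interval includes no difference. With Fisher's exact test on tags at an adjusted p of 0.01 also required, RAB27A was not called in either comparison, while RAB23 and RAB2A were. For RAB23 that test took the unlisted distal PAC in TE-1 as 0 tags, although a PAC under 3 TPM could have been filtered out. With only PACs listed in both libraries counted, RAB23 dropped out, and RAB27A and RAB2A were called in both comparisons. The RAB27A sites printed above lie 160 and 2542 nt into the 3′ UTR.

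With L-lactate, distal usage was called in 1 of 9 members in KYSE30, RAB27A, where 9.55% of all genes were (3.4% with more distal usage), and in 1 of 10 members in TE-1, RAB30, where 11.4% were (5.04% with less). RAB27A rose by 11.1 percentage points (0.0416 to 21.9) on 140 and 142 tags, and in TE-1 the change was 7.36 (-2.70 to 17.2). RAB30 fell in TE-1, from 60 of 152 tags in the control (39.5%, 32.1% to 47.4%) to 49 of 203 with L-lactate (24.1%, 18.8% to 30.5%), a change of -15.3 percentage points (-24.9 to -5.58). Its distal PAC, 9146 nt into the 3′ UTR, was at 5.79 TPM with L-lactate and 5.77 TPM in the control. The PACs nearer to the coding sequence were at 8.50 and 4.33 TPM (2066 nt) and at 6.38 and 4.52 TPM (3010 nt), and a PAC 845 nt into the 3′ UTR was listed only with L-lactate, at 3.31 TPM. The difference in RAB30 between these libraries thus lay in the PACs nearer to the coding sequence. Neither L-lactate call passed Fisher's exact test on the tags at an adjusted p of 0.01, an alternative that compares 2 libraries.

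The other members with at least 2 3′ UTR PACs past the 5 TPM minimum kept their distal share within 10 percentage points in every comparison they entered. RAB22A, whose distal PAC stayed under that minimum, used it for 32 of 255 tags in KYSE30 with L-lactate (12.5%, 9.03% to 17.2%) and 30 of 222 in the control (13.5%, 9.63% to 18.6%), and TE-1 did not list it. With a minimum of 1 TPM RAB22A was called in both comparisons of the lines. RAB10, which acts in GLUT4 and basolateral exocytosis, used its distal PAC for 89.7%, 88.7%, 89.8% and 88.8% of tags. RAB1A used its distal PAC for 7.60%, 8.64%, 6.87% and 7.52%, and RAB8A for 17.4%, 16.3%, 17.4% and 17.3%. The distal RAB8A PAC also lies inside the span of HSH2D, a gene on the same strand. For RAB11A the distal share was 8.20% and 6.94% in KYSE30 and 13.9% and 12.3% in TE-1, a difference of 5.65 percentage points with L-lactate (3.26 to 8.14) and 5.33 in the controls (3.18 to 7.55). RAB11A was thus the opposite of RAB2A in direction, with intervals that exclude 0 in both treatments. RAB35, of fast recycling, was at 74.0%, 79.7%, 76.0% and 70.1%, with L-lactate and control in the opposite order in the lines.

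**Figure D4:**
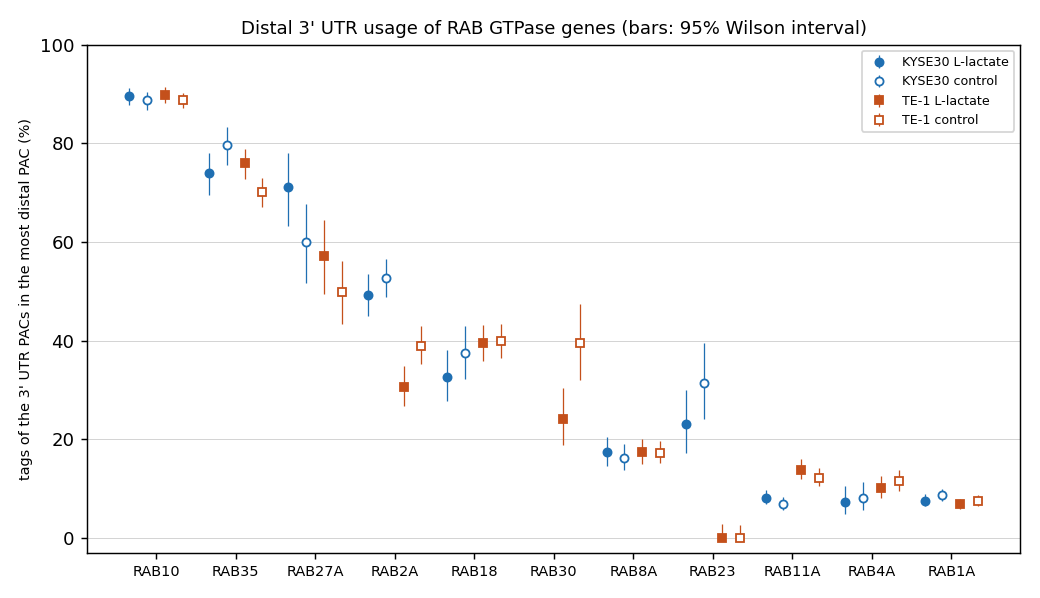
Share of 3′ UTR tags in the most distal PAC (percent) for 11 RAB GTPase genes in each library, with 95% Wilson intervals; symbols as in the plot of levels. RAB10 stays at 88.7% to 89.8% in all 4 libraries, RAB2A is higher in KYSE30 than in TE-1, RAB23 is at 0 in TE-1 where its distal PAC was not listed, and RAB30 is drawn for TE-1 alone.

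Within a PAC the dominant site can also move. With L-lactate in KYSE30, 0 of 54 member PACs moved by more than 24 nt, the distance within which sites were joined, where 1.46% of all PACs in protein-coding genes did. In TE-1 2 of 50 did, RAB10 by 275 nt and RAB11A by 161 nt, both downstream, where 0.734% of all moved downstream. Between the control libraries 2 of 47 moved, again RAB10 and RAB11A, upstream in TE-1, where 2.1% of all did (1.29% upstream), and with L-lactate 0 of 49, where 2.03% of all did. Both pairs of moves come from the TE-1 control library, which these comparisons share. In it the dominant site of RAB11A was at position 65887923 of chromosome 15 and held 498 of 1137 tags (43.8%, 40.9% to 46.7%), and in the other 3 libraries it was at 65888084. That site held 421 of 964 tags in TE-1 with L-lactate (43.7%, 40.6% to 46.8%) and 746 of 1476 in the KYSE30 control (50.5%, 48.0% to 53.1%). Since only the dominant site of a PAC is listed, the tags at the other site are unknown, and sites of nearly equal use can change places with a small change in tags. Of the RAB11A sequences above, the one used in 3 libraries carries AATAAA and the TE-1 control site does not. For RAB10 the dominant site held 62 of 192 tags in the TE-1 control and 49 of 139 with L-lactate.

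The regulators and effectors of RABs were compared in the same way. REP, the transferase subunits and GDI (7 genes) had no call between the lines in either treatment. Of the GEFs, 4 were higher and 6 lower of 28 in the controls, and 4 higher and 4 lower of 28 with L-lactate. Of the GAPs, 1 was higher and 9 lower of 29, and 3 higher and 6 lower of 28. Of the effectors, 7 were higher and 13 lower of 45, and 7 higher and 11 lower of 45. Over all genes, 16.9% were higher and 19.8% lower in the controls, and 17% and 18.4% with L-lactate. The median log2 ratio of the effectors was -0.33 in the controls and 0.02 with L-lactate, and that of the GAPs -0.28 and -0.09, against -0.02 and 0.01 for all genes. With L-lactate in KYSE30, 1 GEF of 25 was lower and no GAP of 27, effector of 42 or prenylation gene of 6 was called. That GEF was RIC1, of the RAB6 exchange factor, at 7.11 TPM with L-lactate and 12.1 TPM in the control. In TE-1 1 GAP of 28 and 1 prenylation gene of 7 were higher, and no effector of 41 was called. These were TBC1D12, at 5.79 and 3.37 TPM, and CHM, which encodes REP1, at 5.20 and 2.98 TPM. They and RIC1 were named after their values were seen, and both genes in TE-1 lay close to the minimum of 5 TPM.

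Between the lines 17 effectors were called the same way in both treatments, where 14.6% of all genes were higher and 16.3% lower in both. Of these, MLPH, MICAL2 and SYTL2 had the largest ratios. MLPH, which links RAB27A to myosin Va, was at 76.8 and 98.3 TPM in KYSE30 and not listed in TE-1. SYTL2, a synaptotagmin-like RAB27 effector, was at 8.50 and 8.89 TPM in KYSE30 and not listed in TE-1. RAB27A itself was not called between the lines. MICAL2, an actin monooxygenase, went the other way, at 19.7 and 14.1 TPM in TE-1 and not listed in KYSE30. Of the exchange factors, DENND2D was at 19.0 and 24.1 TPM in KYSE30 and not listed in TE-1, and RAB3IL1, a GEF for RAB3 and RAB8 proteins, was at 20.5 and 15.8 TPM in TE-1 and not listed in KYSE30. RAB3A was also listed in TE-1 only, whereas RAB8A and RAB8B were not called. RAB3D, on its own 3′ UTR PAC, was lower in TE-1 without a call. A link between these levels was not tested. Of the GAPs, TBC1D19 was the member called higher in TE-1 in the controls, at 5.39 TPM against 1.48 TPM in KYSE30. RABGAP1L was at 59.7, 66.8, 11.3 and 15.1 TPM and TBC1D7, also a subunit of the TSC complex, at 95.3, 112, 19.5 and 27.3 TPM.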

How the data were processed

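Per the published methods, the authors trimmed reads with FASTX-Toolkit, aligned them to GRCh38 (GRCh38.p14 in the submitters' notes) with HISAT2, and called PACs with CAGEr. A site had to reach 1 TPM, and neighbours up to 24 nt apart made a PAC. A PAC of only 1 site was kept from 3 TPM, and across samples PACs above 5 TPM were merged when they lay within 500 nt. The deposited values are RPM, named TPM by the authors: tags per 1000000 tags of a library, not corrected for length. The position columns, also deposited by the authors, have no unit and served only to place PACs. Whole tags were recovered from the steps between TPM values for at least 99.9865% of values within a tolerance of 0.00051 TPM, which gave the depths. Positions are 1-based.

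PACs were placed on GENCODE v44 by their dominant site, and a PAC not listed was taken as 0. The members and gene lists were chosen with earlier results of these data known. No test across replicates was possible. Intervals are 95% Wilson for shares, exact Poisson for levels and exact for ratios of tags. Members named are the 6 highest, the 6 highest and 6 lowest between lines, the 5 highest and 5 lowest with L-lactate, every call, paralogue sets, members with no PAC, and up to 3 genes of each other list. Members given beyond these come from the same role groups, not all of which are given in full, and were chosen after their values were seen. Alternatives changed the span, PACs counted, pseudocount, scaling, minimum TPM, size of change, denominator, distance, position and window, and Fisher's exact test on tags was added. The steps were tested on simulated tags. The tools were matplotlib 3.10.9, pysam 0.24.0, SciPy 1.17.1, pandas 2.3.3 and NumPy 2.4.6 under Python 3.11.15.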

Additional observations from a re-analysis of the deposited data

Results flagged for a closer look

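A RAB3D PAC lies 879 nt past the annotated end of the gene and entered no comparison at the main settings. It was counted for RAB3D where gene spans were extended. It was higher with L-lactate than in the control in both lines, at 5.296 TPM against 3.10 TPM in KYSE30 and at 6.849 TPM against 4.23 TPM in TE-1. The difference was not tested, since each value comes from 1 library.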

How the results depend on the processing

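With other settings for the calls on summed TPM, the count in KYSE30 with L-lactate was 0 with spans extended by 1000 nt, without PACs inside another protein-coding gene or with a minimum of 20 TPM, 2 with a pseudocount of 0.5 or a minimum of 1 TPM, and 4 at the limit below 1.5-fold, against 1. In TE-1 with L-lactate it was 0 with a pseudocount of 5 or at 2-fold, and 7 at the limit below 1.5-fold, against 1. Between the lines it was 10 with a minimum of 20 TPM in the controls and 7 at 4-fold in either treatment, against 16. For distal usage, the L-lactate counts of 1 became 0 with a minimum of 10 TPM, at 20 percentage points or with Fisher's exact test, and 3 in KYSE30 and 4 in TE-1 at 5 percentage points. The counts of 3 between lines became 5 at 5 and 1 at 20 percentage points in either treatment, 5 with a minimum of 1 TPM in the controls and 1 with a minimum of 10 TPM with L-lactate. For dominant sites, the counts of 0 became 1 at any distance and 2 (KYSE30 with L-lactate) or 4 (between lines with L-lactate) at the midpoint of the quantile positions. The other 66 counts stayed within 1.5 times, though not always with the same members. At the midpoint of the quantile positions, the 3 moves in TE-1 with L-lactate were of RAB10, RAB18 and RAB40B, 1 of them upstream. Between the controls the 3 moves were of RAB14, RAB22A and RAB24. The RAB11A move was thus lost in both comparisons, and the RAB10 move between the controls. Of 730 single-gene values, 720 kept their call, 8 were weaker, RAB4B between the lines with L-lactate reversed with extended spans (-0.71), and 1 (RAB40B in KYSE30, pseudocount 0.5) was stronger. Among values that were never called, 6 changed sign, of RAB27A and RAB5C, with main log2 ratios of at most 0.11 in size. Except where the setting itself leaves out the genes or PACs concerned, the cause was not tested. Scaling to the median ratio moved log2 values by at most 0.03. No paired analysis was possible because each group has 1 library. Depth limits distal usage, since RAB27A, RAB23 and RAB30 rest on 132 to 227 tags.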

Other observations

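Of PACs within 5000 nt past the annotated end of a member, RAB42, which has no PAC in its span, had 1 at 832 nt, at 3.31 TPM with L-lactate and 3.46 TPM in the control of TE-1 and not listed in KYSE30. Single PACs past RAB10 (1120 nt, 3.23 TPM) and RAB21 (207 nt, 3.50 TPM) were listed in the KYSE30 control only. Among related GTPases, RAC2 was at 29.7 TPM with L-lactate and 22.9 TPM in the control of KYSE30 and not listed in TE-1, whereas RALA, a RAS family GTPase of exocyst-dependent secretion, was at 90.035 and 84.0 TPM in KYSE30 and at 222 and 190 TPM in TE-1, with L-lactate and in the control.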
